A study of Mus musculus with 16 samples.

Results

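Genes that differ between villus and crypt in the same way in enterochromaffin (EC) cells and in the other epithelial cells are described here, from 16 bulk RNA sequencing samples of mouse small intestine. The samples came from untreated Tph1-CFP mice aged 8 to 16 weeks, and all 4 groups share this genotype and age. Villus and crypt tissue was sorted into EC cells, marked by cyan fluorescent protein driven with Tph1, and CFP-negative epithelial cells (epi), with 5000 cells pooled in a sample. The groups were villus EC, crypt EC, villus epi and crypt epi, with 4 samples each, so that 8 villus samples were set against 8 crypt samples with cell type as a covariate. A gene was counted as a member where its 8 villus values and its 8 crypt values did not overlap, which also fixes the same direction in both cell types. Of 20072 genes in the table, 14089 passed a filter on low values, and 1478 of these were members: 274 were higher in villus (1.94% of tested genes) and 1204 were lower in villus (8.55%). A further 33 genes without overlap were below the filter and are not described.

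In the small intestine, stem cells at the crypt base divide and feed a zone of dividing progenitors. Their daughters stop dividing, take on absorptive or secretory fates and move up the villus, where they are shed at the tip. Paneth cells are the exception, since they stay at the crypt base and secrete antimicrobial peptides, while EC cells arise from Neurog3-expressing endocrine progenitors and make serotonin.

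The sorted populations were first checked against their markers. Tph1, the rate-limiting enzyme of serotonin synthesis in the gut, was at 13600 to 17200 FPKM in villus EC and 3680 to 6160 FPKM in crypt EC, against 22.8 to 87.2 FPKM in villus epi and 0.733 to 1.95 FPKM in crypt epi. FPKM are fragments counted for a gene, divided by its transcript length and by the size of the sample. Their totals ran from 731415 to 1415123 per sample, and sequencing depth is unknown. Samples that stood apart from their group were villus epi replicate 2, crypt EC replicate 1 and crypt epi replicate 3. In villus epi replicate 2 the 52 genes of the mitosis list summed to 810 FPKM, against 105 to 115 in the other villus epi samples. Its stroma and endothelium list summed to 180 FPKM, against 27.6 to 37.8, and its lymphocyte list to 63.1 FPKM, against 12.8 to 29.9. Crypt EC replicate 1 and crypt epi replicate 3 had the lowest sums of the villus tip list in their groups, at 3510 FPKM against 5190 to 5280, and at 3360 FPKM against 5490 to 5700. Marker lists of other cell types also moved with site in EC: the 19 stroma and endothelium genes summed to 46.9 to 59.6 FPKM in villus EC and 176 to 253 FPKM in crypt EC, and the 17 B, plasma and myeloid cell genes to 41.7 to 48.8 FPKM in villus EC and 140 to 159 FPKM in crypt EC, with no gene of either list at 0 throughout a group. In crypt epi these lists held 26.7 to 31.9 and 46.6 to 50.2 FPKM, and their part in the EC differences was not tested. Without villus epi replicate 2 the members numbered 462 and 1460. Without crypt EC replicate 1 they numbered 291 and 1246, and without crypt epi replicate 3 they numbered 296 and 1231.

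With cell type as a covariate, 2063 of 14089 genes were higher in villus (14.6%) and 4000 were lower (28.4%) at an adjusted p below 0.05. Of the members, 270 of 274 and 1194 of 1204 were called, but the criterion and this test use the same values, so that these counts are no separate evidence. The median difference, villus minus crypt in log2(FPKM + 1), was 1.17 among the 274 villus-high members and -1.60 among the 1204 crypt-high members, against -0.12 over all tested genes. At least a 4-fold difference was seen in 50 villus-high and 377 crypt-high members, and at least a 16-fold difference in 3 and 56. The members closest to the criterion were Mapk6, with a villus minimum of 43.8 FPKM and a crypt maximum of 43.7 FPKM, and Prkdc, with a villus maximum and a crypt minimum of 5.03 FPKM each at this rounding. Just outside it were Defa36 and Trav12-4, whose villus values and lowest crypt value were all 0, and Caprin1, with a villus maximum and a crypt minimum of 113 FPKM each at this rounding.

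The size of the difference was not even between the cell types. In EC cells alone, 1454 genes were higher (10.3%) and 2282 lower in villus (16.2%); in epi cells, 2761 were higher (19.6%) and 4994 lower (35.4%). Villus-high members had a median difference of 0.72 in EC and 1.52 in epi, and crypt-high members -0.80 in EC and -2.33 in epi. The difference was larger in epi for 251 of 274 and 1139 of 1204 members. The interaction of site and cell type passed the threshold for 143 villus-high members (52.2%) and 888 crypt-high members (73.8%), against 42.9% of all tested genes. With site as the covariate, EC and epi differed for 97 of 274 villus-high members (35.4%) and 356 of 1204 crypt-high members (29.6%), against 54.6% of all tested genes. Asking for no overlap across 16 samples by itself selects against genes that differ between the cell types, so nothing is read from these shares. Villus epi replicate 2 weighed on these counts: without it EC cells alone had 2708 higher and 3857 lower genes, the interaction passed for 283 villus-high members of 462, and EC and epi differed for 196 villus-high and 543 crypt-high members.

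**Figure D1:**
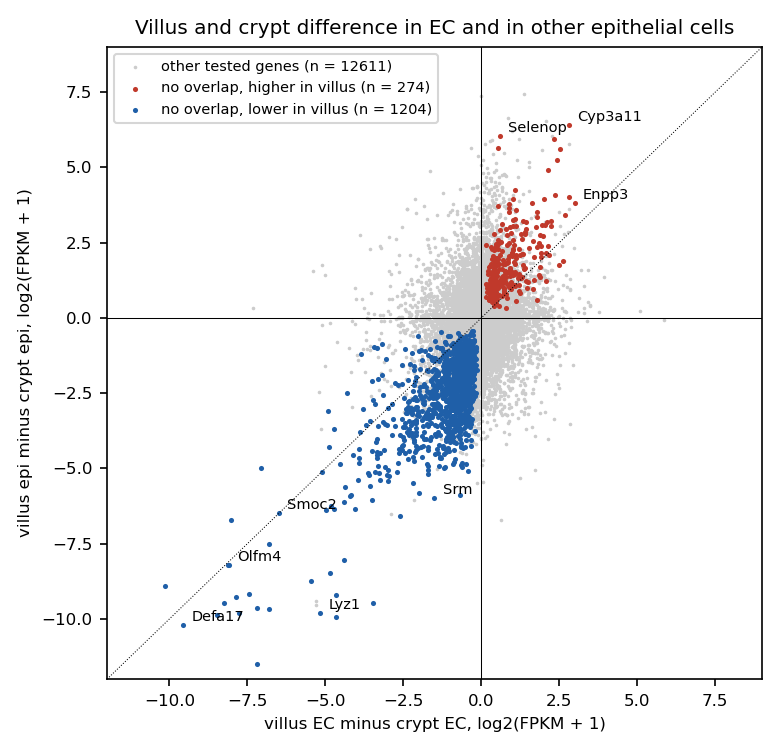
Difference between villus and crypt in EC cells (horizontal axis) and in epi cells (vertical axis), each in log2(FPKM + 1), for 14089 tested genes; the dotted line marks equal differences. Red points are the 274 villus-high and blue points the 1204 crypt-high members, and most lie farther from 0 on the epi axis than on the EC axis.

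The sorted fractions are mixtures, so that fewer cells of a type and less RNA per cell cannot be told apart in any difference below. The counts of each gene list below are to be set against the shares over all tested genes. These are 14.6% higher, 28.4% lower, 1.94% villus-high members and 8.55% crypt-high members.

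Genes of the crypt base carried the widest separation. Of 25 tested stem cell genes, 20 were lower in villus, 0 were higher and 13 were members, with a list median of -1.70. Olfm4, a secreted marker of crypt base stem cells (ENSMUSG00000022026, chr14:79984081-80023139 in mm10, plus strand), had the widest gap of all members. It was at 1.79, 2.9 and 4.26 FPKM in villus (lowest, median and highest of 8 samples), against 787, 1310 and 1530 FPKM in crypt. No villus sample came near any crypt sample, and the difference was -8.16 ± 0.13 (SE; adjusted p = 9.88e-17). It was -8.11 in EC and -8.21 in epi, which did not differ detectably (interaction 0.10, adjusted p = 0.753).

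Smoc2, a secreted matricellular protein of the stem cell signature, was at 0.09, 0.375 and 1.02 FPKM in villus, against 108, 131 and 152 FPKM in crypt. Its difference was -6.50 in EC and -6.49 in epi, with an interaction of 0.00 (adjusted p = 0.992). Kcne3, a potassium channel subunit of chloride-secreting crypt cells, was at 0.113 to 1.53 FPKM in villus, against 146 to 182 FPKM in crypt EC and 325 to 415 FPKM in crypt epi. Ascl2, the Wnt-responsive transcription factor of stem cells, was at 0 to 0.229 FPKM in villus, against 14.4 to 17.3 FPKM in crypt EC and 16.4 to 25.6 FPKM in crypt epi. Lgr5, the R-spondin receptor of these cells, had a median of 0.818 FPKM in villus, against 17.3 FPKM in crypt. Its highest villus value, 4.24 FPKM, was that of villus epi replicate 2 and stayed under the lowest crypt value of 12.3 FPKM. Each of these 4 genes fell in villus, with adjusted p from 1.39e-14 to 1.47e-08.

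Other crypt regulators had the same pattern in both cell types. Sox9, a transcription factor of stem, progenitor and Paneth cells, was at 0.175 to 0.516 FPKM in villus EC and 36.9 to 43 FPKM in crypt EC, and at 0.577 to 2.22 FPKM in villus epi and 36.7 to 43.2 FPKM in crypt epi. The crypt levels of EC and epi thus overlapped. Ifitm3, an interferon-induced membrane protein, differed by -5.11 in EC and -5.13 in epi. Neurog3, the transcription factor that commits cells to the endocrine fate, was at 0 FPKM in 6 of 8 villus samples and at most 0.269 FPKM in the others, against 6.04 to 11.8 FPKM in crypt EC and 2.81 to 6.98 FPKM in crypt epi (difference -2.85 ± 0.18, adjusted p = 9.01e-09). Neurog3 was thus detected in the CFP-negative crypt fraction as well as in the EC fraction. The list of 22 tested endocrine progenitor genes held 5 higher and 7 lower genes and 1 member, which is near the shares over all tested genes.

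**Figure D2:**
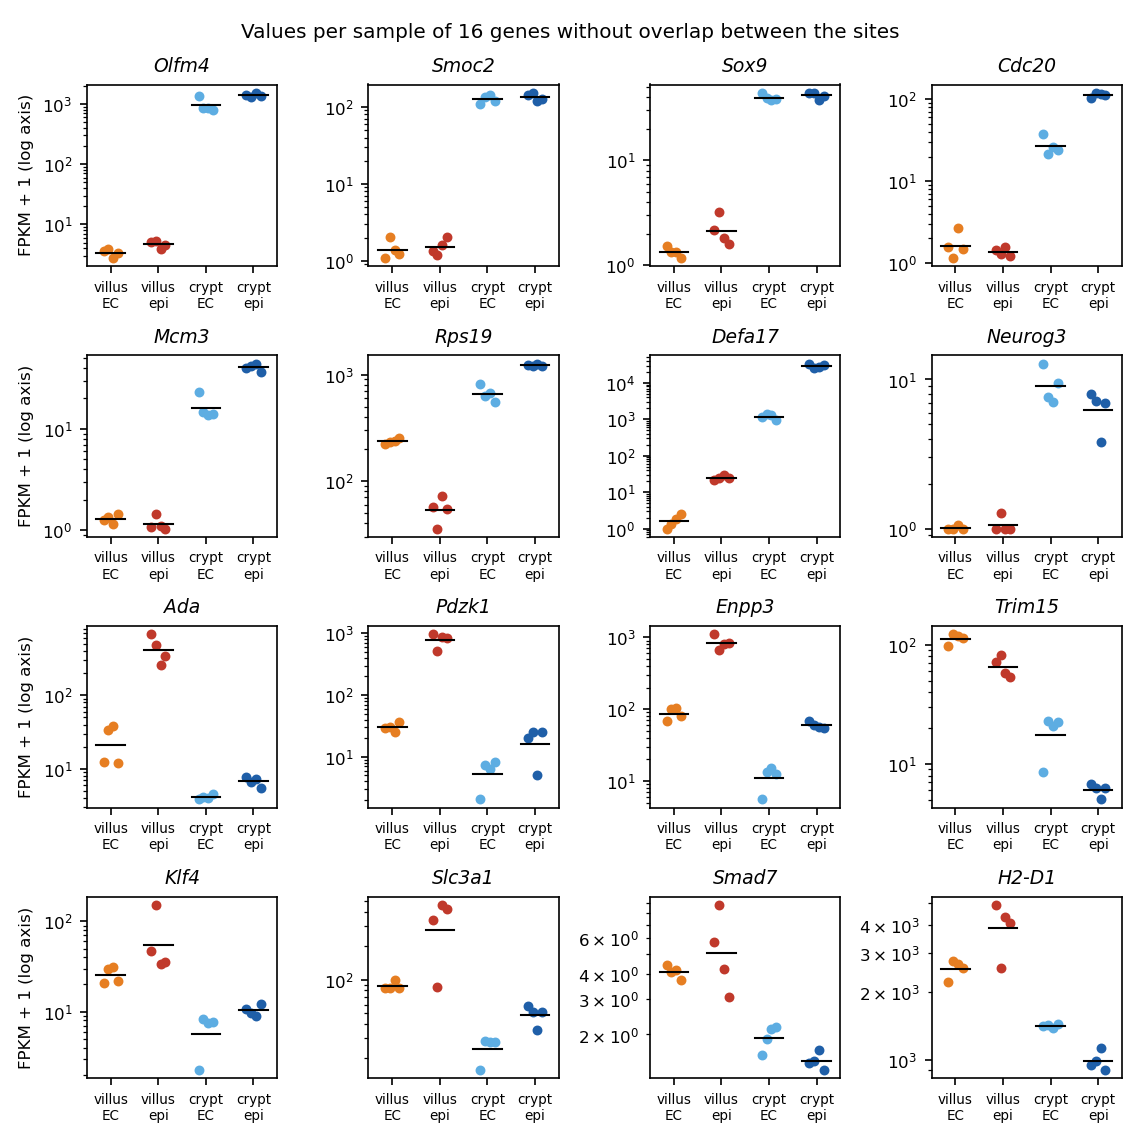
FPKM + 1 (log axis) of 16 members in each sample, with the villus groups on the left and the crypt groups on the right of each panel; points are samples and bars geometric means of 4. The villus and crypt points of each gene do not overlap, and in Pdzk1, Trim15 and Klf4 the lowest crypt EC point is replicate 1.

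Genes of the dividing cell formed a large block. Of 51 tested mitosis genes, 50 were lower in villus, 0 were higher and 34 were members (median -2.64). Of 50 DNA replication genes, 45 were lower, 0 were higher and 32 were members (median -1.97). Medians of lists with low values depended on the pseudocount: with 5 FPKM added in place of 1 they were -0.92 for the stem cell list, -1.59 for mitosis, -1.26 for DNA replication and -1.26 for ribosome biogenesis (-1.90 with 1 added), and with 0.1 added the mitosis median was -4.09. Cdc20, an activator of the anaphase-promoting complex (ENSMUSG00000006398, chr4:118432901-118437352, minus strand), was at 0.16 to 1.68 FPKM in villus EC and 20.2 to 37.1 FPKM in crypt EC, and at 0.231 to 0.582 FPKM in villus epi and 104 to 119 FPKM in crypt epi. The EC and epi ranges overlapped in villus and were apart in crypt, and the difference was larger in epi (-6.36) than in EC (-4.04; interaction adjusted p = 4.27e-05). Ube2c, the ubiquitin-conjugating enzyme that works with the same complex, was at 1.04, 1.66 and 9.37 FPKM in villus, against 21.6, 72.7 and 134 FPKM in crypt. Its highest villus value came from villus epi replicate 2. Ccnb1, the mitotic cyclin, was at 0.201 to 1.11 FPKM in villus, against 15.7 to 30.8 FPKM in crypt EC and 83.2 to 107 FPKM in crypt epi.

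Mcm3, a subunit of the replicative helicase (ENSMUSG00000041859, chr1:20802968-20820312, minus strand), was at 0.0367, 0.208 and 0.46 FPKM in villus, against 12.8, 28.7 and 43.3 FPKM in crypt. Its difference was -4.38 ± 0.24 (adjusted p = 1.17e-09). Mcm5, another subunit, stayed at 0.0816 to 0.618 FPKM in 7 villus samples and reached 6.78 FPKM in villus epi replicate 2, against 15.5 to 56.7 FPKM in crypt. Rrm2, the inducible subunit of ribonucleotide reductase, fell by 3.32 in EC and by 4.92 in epi on the log2 scale (adjusted p = 4.88e-08 and 1.08e-10). Mki67, the proliferation antigen, was at 0.0395 to 0.435 FPKM in villus, against 1.28 to 3.5 FPKM in crypt EC and 10.2 to 12.4 FPKM in crypt epi. Birc5, the mitotic and survival protein survivin, differed by -3.89 in EC and -3.79 in epi in log2(FPKM + 1). Its levels were 0.787 to 1.3 FPKM in villus EC and 22.8 to 37.2 in crypt EC. In epi they were 7.34 to 9.13 FPKM in villus and 116 to 153 in crypt. Villus EC lay near the 1 FPKM added. The ratio of the crypt and villus means was larger in EC (29.5 and 1.04 FPKM) than in epi (126 and 8.17 FPKM). Of 28 cell cycle regulators 15 were lower, 3 were higher and 9 were members, among them Cdk6, the G1 kinase (-2.72 ± 0.19), and Ccne1, the G1/S cyclin (-2.64 ± 0.21).

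Crypt EC samples held less of the mitotic transcripts than crypt epi samples. Across the 34 mitosis members the crypt EC level had a median of 27.0% of the crypt epi level, with a range of 20.2% to 48.9%. The corresponding medians were 52.6% for the 32 DNA replication members, 66.8% for 49 ribosomal protein members and 76.0% for 13 stem cell members. The levels are FPKM as deposited, whose mean totals were 749000 in crypt EC and 1090000 in crypt epi. At equal totals, which were not used for these percentages, each would be higher. No difference between EC and epi is thus read from the medians of ribosomal protein and stem cell members. The summed mitosis list was 669 to 1180 FPKM in crypt EC, against 181 to 211 FPKM in villus EC, with crypt EC replicate 1 the highest. Villus epi replicate 2, at 810 FPKM, lay within the crypt EC range, while the other villus epi samples held 105 to 115 FPKM. These are bulk values, and how the transcripts were spread over the sorted cells was not tested.

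The promoters of these co-varying genes were read for 9 short motifs on either strand, from 250 bases before to 50 bases after the gene start (RefSeq, GRCm38.p6). A RefSeq promoter was matched for 915 of 1204 crypt-high and 209 of 274 villus-high members. The motifs were the cell cycle homology region (CHR, TTTGAA), the CCAAT box (CCAAT), E2F (TTTGGCGC, TTTCCCGC or TTTCGCGC), TCF/LEF (CTTTGAT), HNF4 (CAAAGTCC), CDX (TTTATNG), KLF (CCACACCC), the Myc E-box (CACGTG) and AP-1 (TGANTCA). CHR stood in 23 of 27 mitosis members with a promoter (85.2%), against 17.9% of all 32851 promoters, and CCAAT in 24 of 27 (88.9%), against 37.4%. E2F stood in 9 of 27 DNA replication members (33.3%), against 1.84% of all promoters, and in 6.78% of all crypt-high members. HNF4 stood in 12 of 209 villus-high members (5.74%), against 1.42% of all promoters and 1.31% of crypt-high members. Among the 10342 tested genes with a promoter the shares were 12.1% for CHR, 39.3% for CCAAT, 3.44% for E2F and 1.61% for HNF4. These lists are known for such motifs, matches were not tested, and a match is not a site of binding. In the sequences of a pair of mitosis genes and a pair of helicase genes below, and of Olfm4, capitals mark every match to one of the 9 motifs. Both mitosis promoters hold CHR close to the start together with CCAAT boxes, both helicase promoters hold E2F and CCAAT, and Olfm4 holds 1 CCAAT box. The RefSeq start of Olfm4 used here lies within the longer gene interval given above, which is that of GENCODE.
Cdc20 promoter, chr4:118437294-118437593, minus strand: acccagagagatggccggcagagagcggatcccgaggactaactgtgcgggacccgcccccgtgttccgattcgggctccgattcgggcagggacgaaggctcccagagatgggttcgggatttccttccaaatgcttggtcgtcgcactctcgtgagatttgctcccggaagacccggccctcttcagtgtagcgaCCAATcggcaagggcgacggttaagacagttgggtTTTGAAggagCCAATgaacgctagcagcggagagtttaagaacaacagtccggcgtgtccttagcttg
Ube2c promoter, chr2:164769679-164769978, plus strand: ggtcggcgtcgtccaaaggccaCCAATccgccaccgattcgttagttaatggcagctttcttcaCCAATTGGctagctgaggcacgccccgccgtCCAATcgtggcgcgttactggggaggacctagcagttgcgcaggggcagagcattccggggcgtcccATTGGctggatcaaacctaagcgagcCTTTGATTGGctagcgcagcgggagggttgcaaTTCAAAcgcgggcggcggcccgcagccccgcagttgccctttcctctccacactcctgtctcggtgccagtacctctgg
Mcm3 promoter, chr1:20820263-20820562, minus strand: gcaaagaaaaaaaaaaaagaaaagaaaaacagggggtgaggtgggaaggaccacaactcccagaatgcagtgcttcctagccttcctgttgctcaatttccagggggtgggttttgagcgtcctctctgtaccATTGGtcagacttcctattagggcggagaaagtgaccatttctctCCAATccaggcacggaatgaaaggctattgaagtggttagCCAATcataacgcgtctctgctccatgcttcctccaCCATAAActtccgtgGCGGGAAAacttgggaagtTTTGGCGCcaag
Mcm5 promoter, chr8:75109259-75109558, plus strand: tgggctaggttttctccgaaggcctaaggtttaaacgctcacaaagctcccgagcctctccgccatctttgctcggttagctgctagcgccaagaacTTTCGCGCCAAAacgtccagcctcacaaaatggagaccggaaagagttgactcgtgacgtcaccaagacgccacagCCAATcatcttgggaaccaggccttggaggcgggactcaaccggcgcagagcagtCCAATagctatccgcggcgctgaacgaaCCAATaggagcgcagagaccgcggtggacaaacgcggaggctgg
Olfm4 promoter, chr14:80000052-80000351, plus strand: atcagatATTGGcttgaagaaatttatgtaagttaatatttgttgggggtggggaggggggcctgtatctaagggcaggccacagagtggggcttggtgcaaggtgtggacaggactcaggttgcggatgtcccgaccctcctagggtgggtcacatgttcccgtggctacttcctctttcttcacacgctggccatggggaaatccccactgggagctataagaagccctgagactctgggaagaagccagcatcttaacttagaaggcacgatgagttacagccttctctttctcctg

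**Figure D3:**
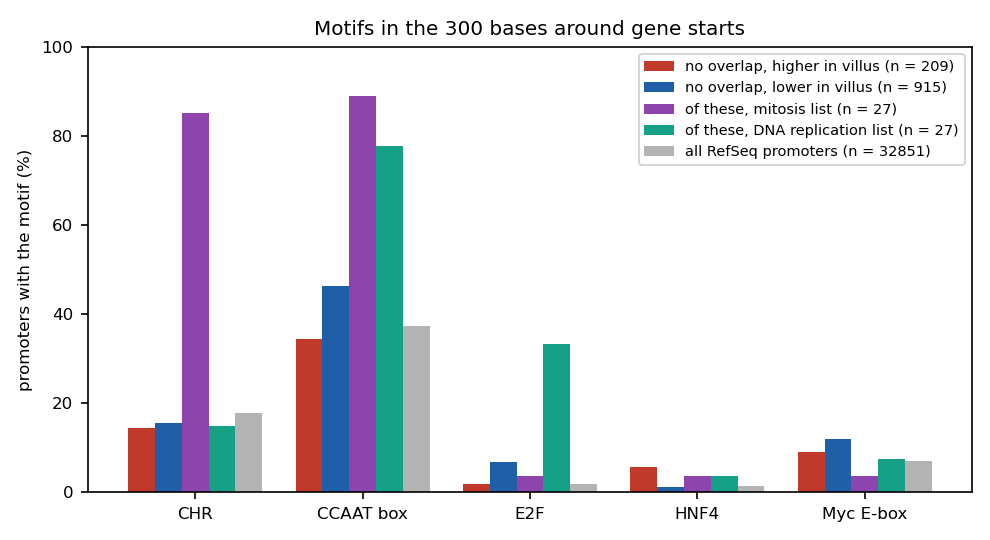
Share of promoters (percent, from 250 bases before to 50 after the RefSeq start) with each of 5 motifs in villus-high members, crypt-high members, the mitosis and DNA replication members among them, and all promoters. The tallest bars are CHR and CCAAT in the mitosis members, at 85.2% and 88.9%.

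Cdc20 has its CHR at -18 and Ube2c at -29 relative to the RefSeq start. Over the 23 mitosis members with CHR the median position of the first match was -19, and 22 of the 23 also held CCAAT. In Mcm3 the E2F matches lie at 20 and 39 after the start. CCAAT stood in 34.4% of villus-high members, against 37.4% of all promoters and 39.3% of tested genes with a promoter. TCF/LEF, the motif of Wnt-dependent transcription, stood in 3.28% of crypt-high members, against 3.73% of all promoters and 2.63% of tested genes. The Myc E-box stood in 12.1% of crypt-high members, against 7.15% of all promoters and 9.91% of tested genes.

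Genes of cell growth were called lower in villus in epi more widely than in EC. The same held over all tested genes, of which 35.4% were lower in epi and 16.2% in EC. The wider calls in epi are thus not particular to these lists. Of 56 tested ribosomal protein genes 55 were lower, 1 was higher and 49 were members, and the interaction passed the threshold in all 56. In EC alone 44 were lower and in epi alone 55, and the list median was -0.69 in EC and -2.59 in epi. Rps19, of the small ribosomal subunit, was at 222 to 254 FPKM in villus EC and 550 to 822 FPKM in crypt EC, and at 34.7 to 71.6 FPKM in villus epi and 1200 to 1270 FPKM in crypt epi. Villus epi was thus lowest and crypt epi highest, with both EC groups between them and no overlap among the 4 groups. Rpl3, of the large subunit, had the same order (-0.90 in EC, -4.87 in epi, interaction adjusted p = 1.03e-08). Processed pseudogenes of ribosomal proteins can share reads with these genes, and how the authors' quantification divided them is not given in the sources used here.

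Of 40 ribosome biogenesis genes 38 were lower, 0 were higher and 28 were members; 22 were lower in EC and 39 in epi (median -0.65 in EC and -3.14 in epi). Of 30 Myc and nucleotide synthesis genes 23 were lower, 3 were higher and 11 were members, with 13 lower in EC and 23 in epi. Myc itself, the growth transcription factor, was at 0.541 to 2.87 FPKM in villus, against 19.5 to 21.9 FPKM in crypt EC and 52.5 to 62 FPKM in crypt epi. Srm, the spermidine synthase, was at 9.36 to 12.5 FPKM in villus EC and 28.7 to 35.5 FPKM in crypt EC, but at 0.22 to 1.35 FPKM in villus epi and 80.7 to 129 FPKM in crypt epi (interaction 4.48, adjusted p = 1.57e-08). Srm fell in villus in both cell types (adjusted p = 3.05e-05 in EC and 3.78e-12 in epi). Of 40 splicing and chromatin genes 29 were lower and 11 were members. Only 7 of the 40 were lower in EC, near the 16.2% of all tested genes, against 32 in epi, and the medians were -0.21 in EC and -1.98 in epi.

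Protein folding genes were split by cell type. Of 26 genes of endoplasmic reticulum folding and secretion 14 were lower, 2 were higher and 5 were crypt-high members, against 28.4%, 14.6% and 8.55% of all tested genes. The medians were -0.01 in EC and -1.49 in epi. Pdia6, a disulfide isomerase, was a member with 154 to 204 FPKM in villus EC and 219 to 264 FPKM in crypt EC, and 30.5 to 43.6 FPKM in villus epi and 448 to 478 FPKM in crypt epi. Although its EC values did not overlap, the EC test missed the threshold (-0.34, adjusted p = 0.0597). Hspd1, the mitochondrial chaperonin, passed it in both (-0.89 in EC, -3.51 in epi).

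**Figure D4:**
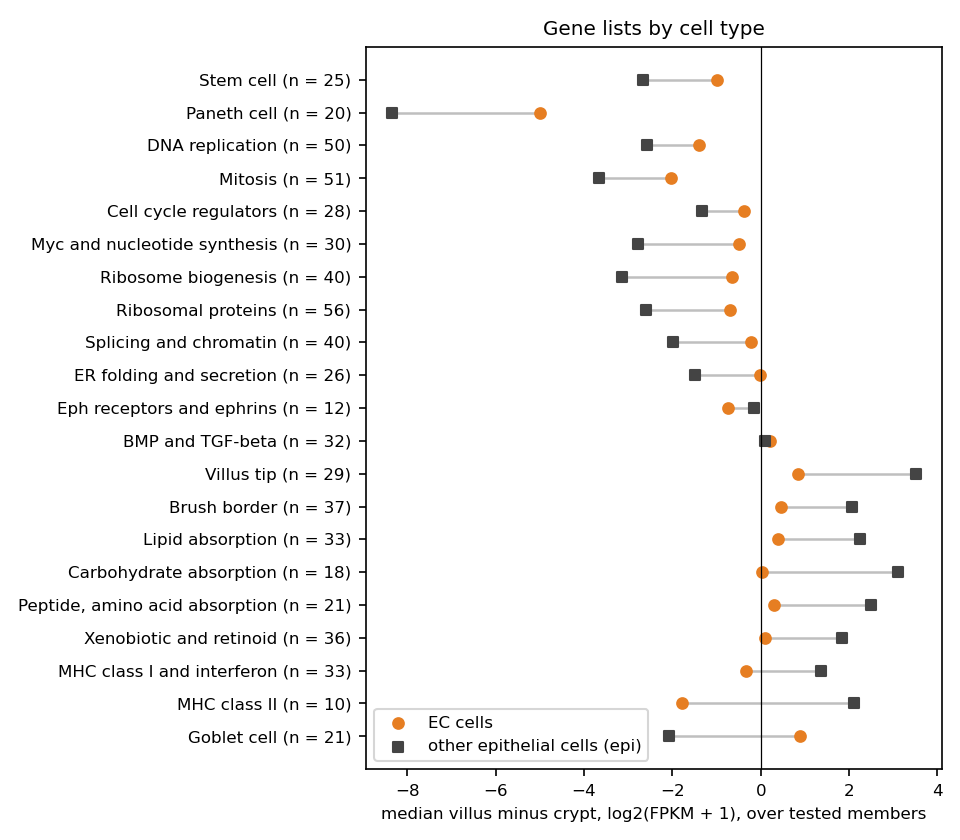
Median difference between villus and crypt, in log2(FPKM + 1), over the tested members of 21 gene lists, in EC cells (circles) and in epi cells (squares), with the number of tested genes after each name. Stem cell, proliferation and growth lists lie left of 0 in both cell types. The MHC class I and interferon, MHC class II and goblet cell lists have their circles and squares on opposite sides of 0.

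Paneth cell genes had the largest differences in log2 terms. Of 20 tested genes 17 were lower in villus, 1 was higher and 11 were members (median -6.99). The list summed to 433 to 917 FPKM in villus EC and 8550 to 11600 FPKM in crypt EC, and to 13400 to 26500 FPKM in villus epi and 248000 to 294000 FPKM in crypt epi. Defa17, an alpha-defensin (ENSMUSG00000060208, chr8:21655780-21656735, plus strand), was at 0 to 1.53 FPKM in villus EC and 961 to 1380 FPKM in crypt EC, and at 20.9 to 28.2 FPKM in villus epi and 26500 to 34200 FPKM in crypt epi. Its difference of -9.88 ± 0.18 was the largest of all members (adjusted p = 7.62e-16). Defa24 followed at -9.52 ± 0.25. Alpha-defensin genes are near-identical copies, so that their separate values are uncertain. Defa17 and Defa24 averaged 24.2 and 183 FPKM in villus epi, so that other genes of the list carried most of its sum there.

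Other Paneth products were members with smaller differences than Defa17. Lyz1, the Paneth cell lysozyme, was at 27.4 to 76 FPKM in villus EC and 1280 to 2200 FPKM in crypt EC, and at 44.7 to 70.9 FPKM in villus epi and 46400 to 52200 FPKM in crypt epi. Pla2g2a, a bactericidal secreted phospholipase, was at 0 to 16.2 FPKM in villus, against 247 to 9410 FPKM in crypt. Itln1, a lectin, differed by -8.09 in EC and by -8.19 in epi. Over the 20 crypt-high members that are in this list or named Defa, the crypt EC level was a median of 3.89% of the crypt epi level, with a range of 1.78% to 13.8%, against 68.2% over the other 1184 crypt-high members. These percentages, too, are of FPKM as deposited, with unlike totals in crypt EC and crypt epi. The part that Paneth cell RNA plays in the crypt EC values of these genes was not tested. Crypt-high members together made up 4.61% ± 0.181 of all FPKM in villus EC and 10.7% ± 1.07 in crypt EC, and 1.52% ± 0.0822 in villus epi and 33.8% ± 0.705 in crypt epi (SD, n = 4 each).

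Position signals and transcription factors gave smaller differences. Of 12 tested Eph receptors and ephrins 6 were lower in villus, 0 were higher and 4 were crypt-high members, against 28.4%, 14.6% and 8.55% of all tested genes. Ephb2, a receptor whose crypt gradient keeps dividing cells in place, was at 0.229, 0.369 and 1.53 FPKM in villus, against 1.58, 2.59 and 3.75 FPKM in crypt (-1.20 ± 0.18, adjusted p = 7.51e-05). Ephb3, its relative, overlapped between the sites and passed in epi (-2.34, adjusted p = 6.37e-05) but not in EC (-0.69, adjusted p = 0.21; interaction adjusted p = 0.0191). Efna4, an ephrin ligand, was at 0 to 0.387 FPKM in villus, against 3.61 to 9.77 FPKM in crypt. Bmp7, a BMP ligand, was at 0.196 to 1.67 FPKM in villus, against 7.41 to 12.1 FPKM in crypt. Of 63 transcription factors of epithelial position 10 were higher, 8 were lower, 2 were villus-high members and 3 crypt-high members, against 14.6%, 28.4%, 1.94% and 8.55% of all tested genes, so that these counts are no result about the list. Ehf, an Ets factor, was at 24.9 to 36.5 FPKM in villus EC and 46.1 to 50.5 FPKM in crypt EC, a small gap, and at 3.51 to 10.8 FPKM in villus epi and 125 to 136 FPKM in crypt epi.

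Myb, a transcription factor of progenitors, was a member by a narrow margin. Its values were 0.147 to 0.328 FPKM in villus EC and 9.16 to 26.2 FPKM in crypt EC, and 30.6 to 52.5 FPKM in crypt epi. In villus epi they were 0.581, 7, 0.465 and 8.95 FPKM in replicates 1 to 4, with the highest just under the lowest crypt EC value. Cdca7, a Myc-responsive gene of dividing cells, likewise reached 20.8 FPKM in villus epi replicate 2 while the other villus samples held at most 5.14 FPKM, against 44.2 to 105 FPKM in crypt.

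Genes of absorption and of the villus tip were called higher in villus, and some of them were members. Of all tested genes 14.6% were called higher, 28.4% lower and 1.94% were villus-high members. Of 29 tested villus tip genes 23 were higher, 0 were lower and 4 were members (median 1.88). Of 37 brush border genes 25 were higher, 0 were lower and 5 were members (median 1.08). The lipid list had 23 higher and 1 lower of 33 with 1 member, the carbohydrate list 11 higher and 0 lower of 18 with 1 member, the peptide and amino acid list 14 higher and 1 lower of 21 with 3 members, and the xenobiotic and retinoid list 19 higher and 0 lower of 36 with 3 members. Most of the called genes in these lists were not members. The same held over all tested genes, where 270 of the 2063 genes called higher were members. The median difference of the villus tip list was 0.84 in EC and 3.51 in epi.

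Cyp3a11, a cytochrome P450 of drug and steroid metabolism (ENSMUSG00000056035, chr5:145854426-145879964, minus strand), had the largest villus-high difference, at 4.61 ± 0.61 (adjusted p = 2.56e-05). It was at 138 to 228 FPKM in villus EC and 5.73 to 44.6 FPKM in crypt EC, and at 4010 to 8620 FPKM in villus epi and 17 to 92.2 FPKM in crypt epi. Crypt EC replicate 1 and crypt epi replicate 3 were the low samples of their groups. Ada, the adenosine deaminase of the villus tip (ENSMUSG00000017697, chr2:163726584-163750239, minus strand), was at 10.8 to 37.5 FPKM in villus EC and 2.81 to 3.54 FPKM in crypt EC, and at 255 to 682 FPKM in villus epi and 4.52 to 6.69 FPKM in crypt epi. Its difference was 2.34 in EC and 5.94 in epi (interaction adjusted p = 5.52e-05). Pdzk1, a scaffold protein of apical transporters, was at 24.3 to 35.9 FPKM in villus EC and 1.05 to 7.39 FPKM in crypt EC, and at 519 to 963 FPKM in villus epi and 4.06 to 24.2 FPKM in crypt epi. The lowest villus EC value of Pdzk1 was close to its highest crypt epi value.

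The villus-high promoters shown are those of Cyp3a11, Ada, Pdzk1 and Slc3a1. Pdzk1 and Slc3a1 were picked after their motifs were seen, since they hold the HNF4 letters, the motif of a nuclear receptor of enterocyte genes. Cyp3a11 holds these letters too, and Ada does not. The choice does not show how common the motif is, which stood in 12 of 209 villus-high members. Slc3a1 is a subunit of the transporter of cystine and dibasic amino acids.
Cyp3a11 promoter, chr5:145879805-145880104, minus strand: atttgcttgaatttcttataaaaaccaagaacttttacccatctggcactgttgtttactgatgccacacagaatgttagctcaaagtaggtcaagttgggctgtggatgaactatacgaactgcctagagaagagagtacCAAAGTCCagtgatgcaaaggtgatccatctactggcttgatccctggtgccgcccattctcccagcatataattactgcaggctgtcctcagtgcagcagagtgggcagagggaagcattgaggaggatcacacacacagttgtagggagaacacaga
Ada promoter, chr2:163750190-163750489, minus strand: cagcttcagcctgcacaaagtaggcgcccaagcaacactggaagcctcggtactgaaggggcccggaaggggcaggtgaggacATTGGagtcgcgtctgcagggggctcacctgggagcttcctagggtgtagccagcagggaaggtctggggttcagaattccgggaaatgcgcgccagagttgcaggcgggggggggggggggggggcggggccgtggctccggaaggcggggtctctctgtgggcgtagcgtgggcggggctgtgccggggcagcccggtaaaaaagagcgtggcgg
Pdzk1 promoter, chr3:96829815-96830114, plus strand: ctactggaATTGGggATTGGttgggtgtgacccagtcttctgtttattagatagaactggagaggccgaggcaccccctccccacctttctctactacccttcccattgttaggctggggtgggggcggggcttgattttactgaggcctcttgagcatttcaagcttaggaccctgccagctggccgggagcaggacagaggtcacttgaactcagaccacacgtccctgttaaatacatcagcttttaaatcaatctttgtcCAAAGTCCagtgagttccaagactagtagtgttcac
Slc3a1 promoter, chr17:85028097-85028396, plus strand: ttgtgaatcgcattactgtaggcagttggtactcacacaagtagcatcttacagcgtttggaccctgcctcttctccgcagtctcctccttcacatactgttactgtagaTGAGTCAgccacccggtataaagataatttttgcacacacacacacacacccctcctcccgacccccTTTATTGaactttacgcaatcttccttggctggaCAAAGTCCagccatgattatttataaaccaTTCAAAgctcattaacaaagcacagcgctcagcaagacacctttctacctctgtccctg

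The HNF4 letters start at -109 in Cyp3a11, 15 after the start in Pdzk1 and at -39 in Slc3a1, and capitals again mark matches to any of the 9 motifs. Hnf4a, the factor for which the motif is named, was not a member and did not pass the site test (-0.92 ± 0.40, adjusted p = 0.0737). It was at 308 to 326 FPKM in villus EC and 243 to 321 FPKM in crypt EC, and at 142, 19.2, 124 and 122 FPKM in villus epi replicates 1 to 4 and 299 to 346 FPKM in crypt epi. Hnf4a fell in epi (-1.98, adjusted p = 0.00124) and gave 0.13 in EC (adjusted p = 0.891). Its site difference passed without villus epi replicate 2 (-0.53, adjusted p = 0.0371), with equal totals (-1.18, adjusted p = 0.0203) and in the fit of 4 group means (adjusted p = 0.0206). Cdx2, the intestinal homeobox factor, showed no detectable difference (-0.31 ± 0.38, adjusted p = 0.541).

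Other transport and surface genes had villus values above crypt values throughout. Slc3a1 was at 82.9 to 97.7 FPKM in villus EC and 14.7 to 27.7 FPKM in crypt EC, and at 84.5 to 458 FPKM in villus epi and 34.6 to 57.1 FPKM in crypt epi. Slc15a1, the peptide transporter, was at 23.4 to 27.7 FPKM in villus EC and 0.465 to 9.29 FPKM in crypt EC, and at 91.7 to 758 FPKM in villus epi, highest in replicate 2, and 2.29 to 7.13 FPKM in crypt epi. Enpp3, an ectonucleotidase (ENSMUSG00000019989, chr10:24772406-24842823, minus strand), differed by 3.40 ± 0.21 (adjusted p = 6.65e-09), with 68.6, 381 and 1100 FPKM in villus, against 4.59, 34 and 67.6 FPKM in crypt. Its villus minimum and crypt maximum were close, since villus EC and crypt epi held nearly the same level. Espn, the actin bundler espin of microvilli, rose by 2.37 in EC and 4.08 in epi. Akr1b7, an aldo-keto reductase, rose by 2.82 and 4.01, and Acot12, an acetyl-CoA hydrolase, by 2.43 and 5.24.

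Among the villus-high members were genes for which the interaction missed the threshold or the change was larger in EC. Trim15, a tripartite motif protein, was at 95.6 to 121 FPKM in villus EC and 7.58 to 21.9 FPKM in crypt EC, and at 52.2 to 80.1 FPKM in villus epi and 4.06 to 5.75 FPKM in crypt epi. Cxcl16, a membrane-bound chemokine, was at 31.4, 54 and 65.5 FPKM in villus, against 2.94, 6.83 and 12.4 FPKM in crypt. Tbx3, a T-box transcription factor, was at 342 to 387 FPKM in villus EC and 35.8 to 146 FPKM in crypt EC, and at 165 to 187 FPKM in villus epi and 35.8 to 43 FPKM in crypt epi. Klf4, a factor of cell cycle exit and differentiation, rose by 2.15 in EC and 2.40 in epi, with 19.7 to 151 FPKM in villus, against 1.25 to 11.2 FPKM in crypt. Hbegf, an EGF receptor ligand, rose by 2.48 and 1.75. Apobec1, the enzyme that edits apolipoprotein B mRNA, rose more in EC (2.63) than in epi (1.89; interaction adjusted p = 0.013), as did 4 other villus-high members with a called interaction, against 138 with the larger change in epi.

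At the other extreme, the site difference of some members lay nearly all in epi cells. Selenop, the selenium transport protein, was at 2600 to 3440 FPKM in villus EC and 1500 to 2100 FPKM in crypt EC, and at 6860 to 13100 FPKM in villus epi and 84.7 to 216 FPKM in crypt epi. Its EC difference missed the threshold (0.60, adjusted p = 0.133) although the 4 villus EC values were above the 4 crypt EC values. Apol9a, an apolipoprotein L gene with close paralogs, was alike (0.53 in EC, adjusted p = 0.112, and 5.66 in epi). In EC cells alone, 173 of 274 villus-high and 845 of 1204 crypt-high members were called; in epi cells alone, 273 and 1202 were.

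Antigen presentation genes were described by class. Of 33 tested MHC class I and interferon genes 14 were higher, 5 were lower, 3 were villus-high members and 1 was a crypt-high member. In EC alone 4 were higher and 5 lower, near the 10.3% and 16.2% of all tested genes. In epi alone 22 were higher and 4 lower, against 19.6% and 35.4%. The median of this list was -0.34 in EC and 1.37 in epi. H2-D1, an MHC class I heavy chain, was at 2220, 2720 and 4910 FPKM in villus, against 900, 1260 and 1440 FPKM in crypt (1.41 ± 0.19). H2-K1, another heavy chain, rose in epi (2.33, adjusted p = 3.28e-08) and missed the threshold in EC (0.49, adjusted p = 0.0625); the class I genes resemble each other and could share reads. Of 10 MHC class II genes 0 were members, 1 was called higher and 0 lower; in EC alone 6 were lower and in epi alone 9 were higher, and the median was -1.77 in EC and 2.10 in epi. H2-Aa, a class II chain, fell in EC (-2.38, adjusted p = 0.0175) and rose in epi (3.62, adjusted p = 0.000342; interaction -6.01, adjusted p = 0.000149). Its crypt EC values were 194, 26.5, 28 and 24.6 FPKM in replicates 1 to 4, so that replicate 1 stood apart. The B, plasma and myeloid cell list given above was also higher in crypt EC than in villus EC, and its part in the class II difference was not tested.

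BMP and TGF-beta signalling, which restrains growth and is strongest toward the villus, had 14 genes higher and 6 lower of 32 tested, with 2 villus-high and 3 crypt-high members. The shares over all tested genes were 14.6%, 28.4%, 1.94% and 8.55%. The lower genes and crypt-high members were near or below them, and are no result about the list. Smad7, an inhibitory Smad, was at 2.06, 3.2 and 7.77 FPKM in villus, against 0.332, 0.628 and 1.17 FPKM in crypt (1.43 ± 0.20, adjusted p = 3.87e-05). Skil, a repressor of Smad signalling, rose in both cell types (1.70 in EC, 2.04 in epi). The BMP target genes Id1, Id2 and Id3 and the inhibitory Smad6 overlapped between the sites. Id1 was at 309 to 526 FPKM in villus EC and 42.5 to 178 FPKM in crypt EC, and at 56.7 to 163 FPKM in villus epi and 39.8 to 55.9 FPKM in crypt epi, and passed in both (1.86, adjusted p = 0.00246, and 1.17, adjusted p = 0.0213). Id3 rose in EC (1.91, adjusted p = 0.0067) and gave 0.17 in epi (adjusted p = 0.775), with an interaction at adjusted p = 0.0472. Smad6 rose in EC (2.60, adjusted p = 0.000117) and gave 0.34 in epi (adjusted p = 0.476; interaction adjusted p = 0.00364). Mcl1, a survival factor, rose in both cell types (1.03 and 2.25).

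The criterion over 16 samples leaves out genes whose level depends mainly on cell type. With no overlap asked for within EC and within epi separately, in the same direction, 721 genes were higher (5.12%) and 1975 lower in villus (14%). Of these, 447 and 771 overlapped across the 16 samples. Sct, the hormone secretin, was at 50700 to 103000 FPKM in villus EC and 1280 to 9170 FPKM in crypt EC, and at 419 to 951 FPKM in villus epi and 110 to 391 FPKM in crypt epi. Nt5e, the ectonucleotidase CD73, rose in both cell types (2.80, adjusted p = 0.00351, and 3.62, adjusted p = 0.000154), and so did Tph1 (1.53 and 4.20) and Apoa4, the lipid-inducible apolipoprotein (2.25 and 6.03). The Tph1 values in the epi groups were under 1% of those in the EC groups of the same site.

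Other villus genes were called in epi and not in EC. Alpi, the intestinal alkaline phosphatase, rose in epi (3.43, adjusted p = 0.00032) and gave 0.03 in EC (adjusted p = 0.982; interaction adjusted p = 0.00733). Krt20, the keratin of differentiated cells, likewise rose in epi (2.15) and missed the threshold in EC (0.50, adjusted p = 0.466). The goblet cell list had medians of 0.89 in EC and -2.08 in epi. Muc2, the goblet cell mucin, fell in epi (-2.22, adjusted p = 0.00481) and was at most 1.97 FPKM in EC samples of either site. Opposite and non-overlapping directions were found for 459 genes higher in villus EC and lower in villus epi, and for 361 the other way. Genes called in both cell types were 488 higher in both, 1415 lower in both and 590 opposite. Genes called in both with 1 direction were 50.9% of the EC calls and 24.5% of the epi calls. Across all tested genes the EC and epi differences had a correlation of 0.40, from 8 samples each with none shared; this is across genes, which are not independent replicates.

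The margin of the criterion rested on the EC samples. For 539 of 1204 crypt-high members (44.8%) the lowest crypt value was that of crypt EC replicate 4, and for 342 (28.4%) the highest villus value was that of villus EC replicate 4. Mitochondrially encoded transcripts took 2.34% ± 0.12 of the total in villus EC and 3.38% ± 0.644 in crypt EC, and 10.8% ± 4.04 in villus epi and 3.68% ± 0.355 in crypt epi (SD, n = 4 each); their part in the results was not tested. Scaling mattered for the balance of directions. With every sample brought to the same total, 1368 genes were higher and 5588 lower, 19.7% higher among calls against 34% as deposited, and members were 127 and 1513; with median-ratio scaling calls were 2570 and 3364, 43.3% higher, and members 371 and 977. The median of all genes was -0.31 and -0.01 under these scalings, against -0.12 as deposited. For the site difference with cell type as a covariate, the sign of the list median was kept under both for each list described with a median here except MHC class II. That list was at -0.13 with equal totals and 0.30 with median-ratio scaling, against 0.16 as deposited. List medians within EC and within epi were not recomputed under these scalings.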

How the data were processed

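RNA was extracted from sorted cells, amplified as full-length cDNA (SMART-Seq HT) and made into Nextera XT libraries, per the labels' protocols. The authors deposited 1 table of gene values in FPKM. The submitters' processing notes name bcl2fastq 2.20, kallisto, sleuth and mm10; how each library was scaled, and with which annotation release, is not given in the sources used here. Depth is unknown, so no counting error is given.

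Values were used as deposited, as log2(FPKM + 1), on which the change of low genes is understated. Genes at 1 FPKM or more in at least 4 of 16 libraries entered the tests, made in limma 3.58.1 with R 4.3.3 (eBayes with a trend) and all 16 libraries in 1 fit of site and cell type. Differences within EC and within epi and the interaction came from a fit of 4 group means. Tests were two-sided with Benjamini-Hochberg adjustment over 14089 genes and a threshold of 0.05. The method was tested on simulated data with the same site effect in both cell types. That test does not cover site effects of unlike size. The site test takes out the level difference between cell types, and counts a site difference of unlike size in EC and epi as spread. Gene positions are from GENCODE M21 on mm10, and promoters are from RefSeq, GRCm38.p6, 1 per gene; those of Defa17 and Defa24 are not shown. Figures used matplotlib 3.10.9 in Python 3.11.15. The kit does not mark strand, so overlapping antisense genes cannot be told apart.

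The members and the 46 gene lists were chosen with earlier results of these data known. Named genes were the 15 members with the largest change in each direction among called members with a mean of at least 5 FPKM at the higher site, up to 4 members of each list and 34 genes whatever their values, and the text gives some of these; a few are not reported here. Kcne3, Ifitm3, Tbx3, Hbegf, Apobec1 and Ube2c, and the promoters of Cdc20, Ube2c, Mcm3, Mcm5, Pdzk1 and Slc3a1, were added after their values or motifs were seen. Replicate numbers are those of the sample titles. The labels do not tie them to mice, so p-values measure the spread between these samples. Other pseudocounts (0.1 and 5), filters, scalings and fits, and leaving out each library, were tried.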

Additional observations from a re-analysis of the deposited data

Results flagged for a closer look

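Of 288 groups of 4 values (72 genes named in the text, 4 groups each), 53 had 1 sample far from the other 3; chance flags about 1 in 20 groups, and the flags of 1 sample are not independent of each other. Crypt EC replicate 1 gave 22 of them, villus epi replicate 2 gave 13 and crypt epi replicate 3 gave 11. All values in this paragraph are FPKM. Crypt EC replicate 1 was high for Olfm4 at 1340, Mcm3 at 22.3, Bmp7 at 12.1 and H2-Aa at 194. It was low for 18 genes, most of them higher in villus: Cyp3a11 at 5.73, Slc15a1 at 0.465, Akr1b7 at 4.34, Espn at 7.48, Trim15 at 7.58, Cxcl16 at 3.98, Slc3a1 at 14.7, Klf4 at 1.25, Skil at 8.59, Id1 at 42.5, Id2 at 116, Id3 at 130, Tbx3 at 35.8, Hbegf at 5.39, Apobec1 at 4.48, Nt5e at 11.3, Sct at 1280 and Krt20 at 463. Crypt epi replicate 3 was high for Birc5 at 153 and H2-Aa at 476, and low for Cyp3a11 at 17, Pdzk1 at 4.06, Acot12 at 0.591, Slc15a1 at 2.29, Espn at 16.2, Selenop at 84.7, Apobec1 at 16.8, Tph1 at 0.733 and Apoa4 at 58.4. Villus epi replicate 2 was high for Lgr5 at 4.24, Neurog3 at 0.269, Mcm3 at 0.46, Skil at 253, Apobec1 at 99.8 and Alpi at 7740, and low for Pdia6 at 30.5, Selenop at 6860, Id2 at 24.5, Apoa4 at 3360, Hnf4a at 19.2, Cdx2 at 4.26 and Muc2 at 5.11. In villus EC, replicate 3 was high for Lgr5 at 1.04, Neurog3 at 0.0592 and Slc3a1 at 97.7, and replicate 1 was high for Ephb2 at 0.76 and low for Cxcl16 at 31.4 and Apobec1 at 32. Crypt EC replicate 3 was low for Apol9a at 2.5. The cause of these deviations was not tested.

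The difference between villus and crypt itself differed between EC and epi, by the interaction in limma at an adjusted p below 0.05, for 41 of the named genes. The values are the EC difference minus the epi difference in log2(FPKM + 1). Smaller and larger are meant on this scale, where a drop to values under 1 FPKM is cut short. Pla2g2a averaged 334 FPKM in crypt EC and 0.0693 in villus EC, against 8620 in crypt epi and 11.4 in villus epi. Its drop as a ratio of FPKM was thus larger in EC. For Kcne3 the means were 164 and 0.5 FPKM in EC and 382 and 1.11 in epi, a nearly equal ratio. Genes are grouped by the sign of the 2 differences, whether or not each passed the threshold alone. Alpi, Krt20, Ephb3, Pdia6, Selenop, Apol9a, H2-K1 and Hnf4a missed it in EC, and Id3 and Smad6 missed it in epi. Among genes lower in villus in both cell types, a positive value is a smaller drop in EC: Kcne3 0.70, Myc 1.22, Mki67 1.70, Cdc20 2.33, Ccnb1 1.72, Mcm3 1.51, Rrm2 1.60, Ccne1 1.27, Srm 4.48, Rps19 3.05, Rpl3 3.97, Hspd1 2.62, Pdia6 3.18, Lyz1 4.63, Pla2g2a 1.21, Ephb3 1.65, Efna4 0.84, Ehf 3.62 and Ube2c 1.70. It was negative for Defa24 -1.24. Among genes higher in villus in both, a negative value is a smaller rise in EC: Ada -3.60, Cyp3a11 -3.62, Pdzk1 -3.09, Acot12 -2.81, Slc15a1 -2.78, Espn -1.71, Selenop -5.43, Apol9a -5.13, H2-D1 -1.12, H2-K1 -1.85, Mcl1 -1.22, Tph1 -2.67, Apoa4 -3.78, Alpi -3.40 and Krt20 -1.66. It was positive for Id3 1.73, Smad6 2.26, Apobec1 0.74 and Sct 2.59. With differences of opposite sign in the cell types, the values were Hnf4a 2.12 and H2-Aa -6.01.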

How the results depend on the processing

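No named gene with a called site difference, in the main fit or under the setting, changed direction under any setting run. Changes of sign without a call were not counted. Over all named genes and settings that keep every library, 1634 verdicts were the same, 35 lost and 2 gained a call; with 1 library left out these were 2404, 25 and 3. With every library brought to the same total, 1368 genes were higher in villus, 127 members were villus-high, EC cells alone had 3502 lower genes, the interaction passed for 70 villus-high members, and EC and epi differed for 50 villus-high and 795 crypt-high members. Without overlap asked for within each cell type only, 721 genes were higher and 1975 lower, and 488 were called higher in both cell types. Leaving out 1 library gave 277 to 462 villus-high members, 1166 to 2708 higher and 1822 to 3857 lower genes in EC, an interaction for 130 to 283 villus-high members, and a difference between EC and epi for 73 to 196 villus-high and 313 to 543 crypt-high members; each upper end is without villus epi replicate 2. Without that library 2874 genes were higher and 4796 lower at the site. Other pseudocounts, filters and variance settings left counts within 1.5 times. A replicate block on the title number gave 1786 higher and 3648 lower genes. A replicate block on the library number in the labels gave 446 and 1351, with 609 and 1232 in EC, an interaction for 95 villus-high members, and EC and epi apart for 18 villus-high and 91 crypt-high members. What equal numbers mean is not given in the labels. Deviations of samples with the same title number had correlations of -0.268 to 0.17, 4 of 24 pairs over 0.1 (median -0.035, against 0.012 for other pairs). With the same library number 1 of 10 pairs was over 0.1 (median -0.097, against 0.0055 for other pairs). So few pairs do not settle whether samples are paired. The cause of the shifts in counts was not tested. FPKM carry no depth, so precision at low values cannot be given.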
